A study of Homo sapiens with 12 samples.

Results

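The 43 genes described here encode lysosomal enzymes, lysosomal membrane proteins and autophagy receptors. They were chosen by name, and each matched 1 of the 57820 gene identifiers in the count tables. RNA was sequenced from AsPC-1, a long-established line of human pancreatic cancer cells of the ductal type, in 12 libraries that fall into 4 groups of 3. In the siRNA experiment, siBACH1 cells were transfected with a Stealth small interfering RNA against *BACH1* in Lipofectamine RNAiMAX and harvested 24 h later. The siCont cells beside them were also harvested 24 h after transfection. In the knockout experiment, sgBACH1 cells carried a lentiCRISPR v2 guide against *BACH1* and had been selected in puromycin at 10 µg/ml. The sgCont cells beside them had also been selected in puromycin at 10 µg/ml. All grew in a serum-supplemented medium, and the labels do not say whether the knockout cells were a clone or a pool. They also do not say whether the replicates of a group came from different cultures, so the p-values rest on a spread between libraries that may be technical only.

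Lysosomes are acidic compartments in which proteases, glycosidases and lipases break down material that arrives by endocytosis or by autophagy. In autophagy a double membrane closes around cytoplasm, ATG8 proteins such as LC3B coat that membrane, and receptors such as p62 and NDP52 tie cargo to them. Many lysosomal genes carry a palindromic E-box, known as the CLEAR element, that the transcription factors TFEB and TFE3 bind, and pancreatic cancer cells are known for high lysosome and autophagy activity. BACH1 is a repressor that occupies the DNA elements used by the activator NRF2, and *SQSTM1*, the gene of p62, is a known NRF2 target.

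Total counts ran from 13099706 to 21478886 per library. *BACH1* RNA fell by 3.15 on the log2 scale in siBACH1 and by 0.48 in sgBACH1 (edgeR quasi-likelihood test, adjusted p = 4.09e-06 and 4.48e-05), so the gene counts follow the labels in each experiment. The 7 ductal epithelial markers were each measured, and none was under 1 CPM (counts scaled to library size) throughout a group. The fibroblast genes *COL1A1*, *COL1A2*, *COL3A1* and *DCN*, the macrophage genes *CSF1R*, *CD163* and *MARCO* and the endothelial genes *VWF*, *CDH5* and *KDR* were under 1 CPM in every library. Other markers of those lists were detected: *LUM* averaged 299.2 CPM in siCont and 350.3 in siBACH1, and 122.9 in sgCont and 48.7 in sgBACH1, *LYZ* is described at the end, and *CD14* averaged 0.818 to 3.41 CPM over the groups. *PTPRC* averaged at most 0.772 CPM and was under 1 CPM in every library of the groups other than sgCont. *LUM* rose by 0.23 in siBACH1 and fell by 1.34 on the log2 scale in sgBACH1, and *CD14* fell by 1.49 in siBACH1 (edgeR adjusted p = 0.0372, 2.46e-10 and 0.0122). Their part in the results was not tested. Replicate 2 of siCont stood apart from its group: the chi-square per degree of freedom was 30.5 and 35.8 against the other siCont libraries, which differed from each other by 8.89. Among the 43 genes that library was 2.90 times the mean of the other siCont libraries for *MAP1LC3B*, 2.86 times for *WIPI1* and 2.48 times for *ULK1*, and 0.516 times for *GAA*.

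Sequences of some of these genes bear on the results below and are shown first. The untranslated 3′ ends of the transcripts (3′ UTRs) were searched for AACATTA and ACATTAA, 7-base sequences that earlier results of these data had tied to falling RNA in siBACH1. The longest 3′ UTR of each gene in GENCODE 29 was read in the sense direction only, since this is sequence of the transcript. Of the 43 genes, 3 held the 8-base sequence AACATTAA, which contains both, 4 held only a 7-base match and 36 held none. Among the 36 is *GLA*, whose longest 3′ UTR had 6 bases and could hold no match. The sites are shown with the match in capitals and GRCh38 positions of the match, except that of *ASAH1*.

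LAMP1, chr13:113322640-113322647, plus strand: ctggttaAACATTAAtatttac
NPC2, chr14:74480011-74480018, minus strand: ttttaacAACATTAActtgtgg
MAP1LC3B, chr16:87403964-87403971, plus strand: aactgaaAACATTAAcattcag
NBR1, chr17:43210459-43210465, plus strand: ttgaaagACATTAAcctcgga
CALCOCO2, chr17:48864024-48864030, plus strand: gtgatgaAACATTAgtttgtg
GABARAPL1, chr12:10221975-10221981, plus strand: atctagaAACATTAcaccaca

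Promoters were searched on both strands for the 8-base palindrome TCACGTGA, the core of the CLEAR element, in RefSeq windows (GRCh38.p14) from 250 bases before to 50 bases after the transcription start. Of the 43 genes 35 had an entry, and 5 of those held the sequence, against 1.04% of 27305 promoters. The sites are shown with the palindrome in capitals, since the genes that carry them can be followed through the comparisons.

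LAMP1, chr13:113297210-113297217, plus strand: ccgcgggaTCACGTGAcgcccggg
LAMP1, chr13:113297237-113297244, plus strand: ggcgcagcTCACGTGAcaagcgct
GAA, chr17:80101504-80101511, plus strand: aggccgcgTCACGTGAcccaccgc
GAA, chr17:80101549-80101556, plus strand: cccgccggTCACGTGAcccgcctc
MCOLN1, chr19:7522582-7522589, plus strand: agaggcggTCACGTGAggggctct
MCOLN1, chr19:7522609-7522616, plus strand: ctaccgggTCACGTGAccgaggca
CTSA, chr20:45891309-45891316, plus strand: gccggagtTCACGTGActcgtaca
ATP6V0D1, chr16:67481210-67481217, minus strand: ccttatggTCACGTGAggcgcttg

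With a G before it and a C after it, the palindrome was in the promoters of *GAA* and *MCOLN1* and in 0.381% of all promoters. The AP-1 sequence TGAGTCA, which is part of the element that BACH1 and NRF2 share, was in the promoters of *FUCA2* and *TFE3* and in 4.92% of all promoters. The longer form of that element, in which TGC stands before the same letters, was in none of the 35 and in 0.157% of all promoters. A match of this kind is a description of the sequence and does not show binding.

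The levels of the genes in the control cells span a wide range. Per kilobase of exon, which allows genes to be compared, *PSAP* was highest in each of the 4 groups, at 333.4 CPM per kb in siCont and 304.6 in sgCont. It encodes prosaposin, the precursor of the saposins that help break down sphingolipids. The cathepsin B gene *CTSB* (149.8 and 121.7 CPM per kb), *SQSTM1* (135.2 and 116.2), *CTSZ* (74.8 and 59.4) and *CTSD* (39.0 and 36.9) followed in both control groups. In siBACH1 and in sgBACH1 *SQSTM1* stood second, above *CTSB*, at 220.1 and 156.3 CPM per kb. At the other end, *MANBA*, *WIPI1* and *NEU1* were the lowest 3 genes in every group, all at or below 1.07 CPM per kb. *NEU1*, the lysosomal sialidase, had as few as 5 counts in a library, so little can be seen of its changes. The CPM of the siRNA and the knockout experiments were scaled separately, and levels set across them are approximate.

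**Figure D1:**
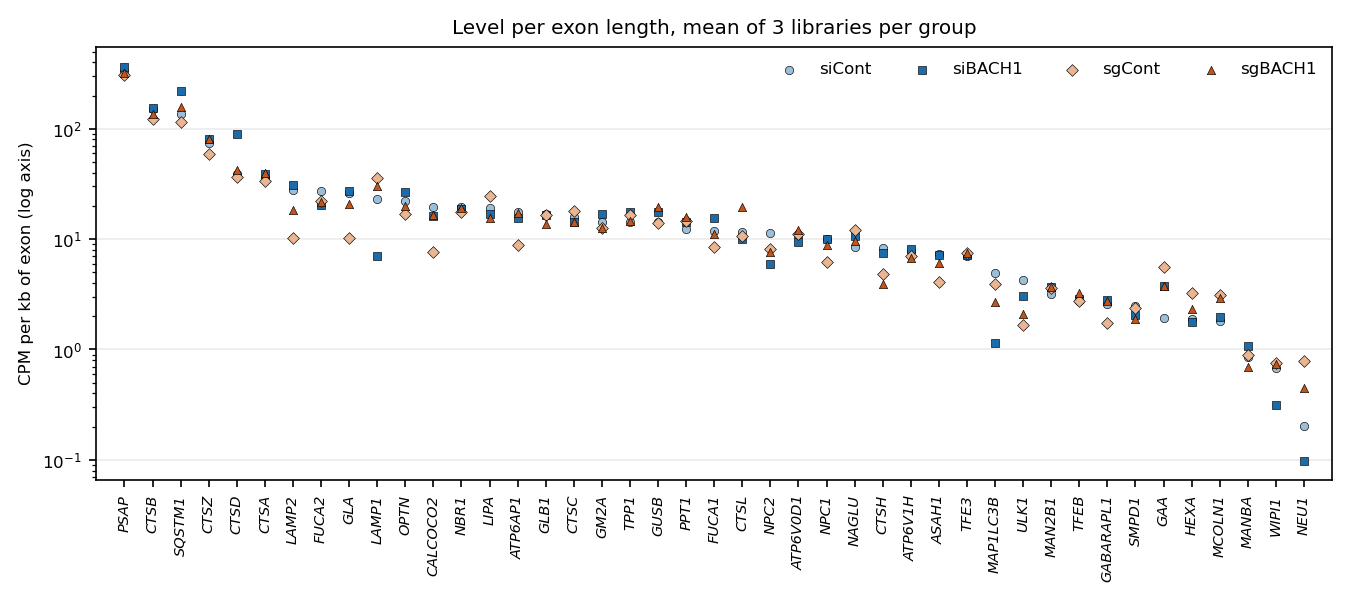
Mean level of each of the 43 genes in CPM per kilobase of exon on a log axis, 3 libraries per group, ordered by siCont. PSAP, CTSB and SQSTM1 lead in every group, and NEU1, WIPI1 and MANBA close the order.

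Summed over the 43 genes, siCont libraries held 5809 to 6243 CPM and siBACH1 libraries 6727 to 6911. The sums were 5110.0 to 5283 in sgCont and 5844 to 5965 in sgBACH1. Most of each sum comes from *PSAP*, *CTSB* and *SQSTM1*, and the sum hides changes in both directions. In bulk RNA such as this, fewer cells expressing a gene and less RNA per cell cannot be told apart.

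The siRNA comparison asks what an acute loss of BACH1 does to these genes. Of the 43, 6 rose (*CTSD*, *GAA*, *GUSB*, *FUCA1*, *TPP1* and *SQSTM1*), 4 fell (*LAMP1*, *NPC2*, *MAP1LC3B* and *FUCA2*) and 33 did not pass the test (edgeR, adjusted p below 0.05 over 14591 genes). Among all genes tested 10.9% rose and 13.0% fell, which is the background for these counts. Without siBACH1 replicate 1 or 2 the number that rose was 2, without siBACH1 replicate 3 or siCont replicate 1 it was 3, and without siCont replicate 2 it was 10, when *LAMP2*, *PSAP*, *OPTN* and *NPC1* passed as well. The median log2 fold change of the 43 was 0.05, against 0.005 over all genes. Treated and control libraries stood fully apart for 23 of the 43, against 42.5% of all genes.

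The knockout comparison asks the same of selected cells that carry the guide against *BACH1*. Here 13 rose (*LAMP2*, *CTSA*, *CTSB*, *CTSL*, *CTSZ*, *GLA*, *GUSB*, *ASAH1*, *NPC1*, *ATP6AP1*, *SQSTM1*, *CALCOCO2* and *GABARAPL1*) and 6 fell (*LAMP1*, *CTSC*, *GAA*, *HEXA*, *LIPA* and *MAP1LC3B*), with 24 not passing. Among all 14469 genes tested 11.3% rose and 12.3% fell. The number that fell was 2 without sgBACH1 replicate 2 and 3 without sgCont replicate 3. The median of the 43 was 0.07 on the log2 scale, against 0.006 over all genes, and treated and control libraries stood fully apart for 27 of the 43, against 36.5% of all genes.

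Few of the calls were shared. *GUSB* and *SQSTM1* rose in both experiments, as did 2.31% of the 13845 genes tested in both. *LAMP1* and *MAP1LC3B* fell in both (2.51% of all), and *GAA* was called in opposite directions (3.52% of all). Another 5 genes passed in siBACH1 alone, 14 passed in sgBACH1 alone and 19 passed in neither. For these counts the shares over all genes were not taken. In either direction, 23.9% of all genes tested passed in siBACH1 and 23.5% in sgBACH1. Passing in 1 experiment alone does not show that the responses differ. That difference, tested across the 12 libraries, passed for 16 of the 43, against 23.6% of all genes. In 10 of them the knockout response was the higher (13.0% of all genes) and in 6 the lower (10.6%). Across the 43 genes the log2 fold changes of the 2 experiments had Pearson's r of 0.25 and Spearman's rho of 0.18, against 0.12 and 0.07 across all genes. These describe genes of the same 12 libraries, which are not independent.

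**Figure D2:**
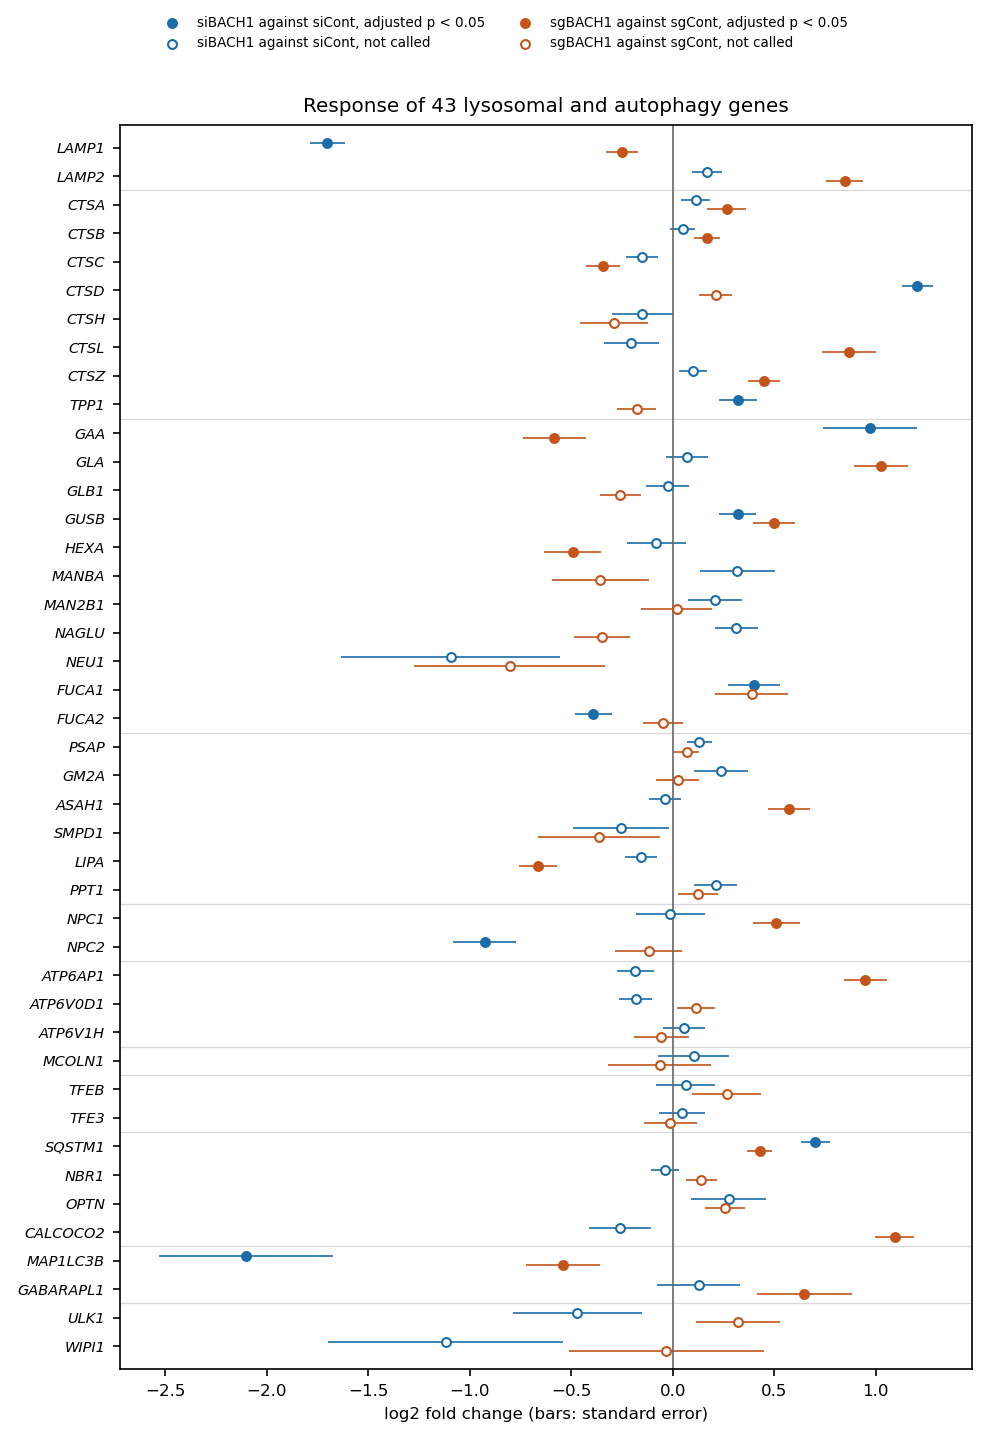
Log2 fold change with its standard error for each of the 43 genes, grouped by role, in siBACH1 against siCont (blue) and sgBACH1 against sgCont (orange). Filled points passed the test at an adjusted p below 0.05. SQSTM1 and GUSB lie to the right in both experiments, LAMP1 and MAP1LC3B to the left in both, and GAA lies on opposite sides.

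Among the autophagy receptors, *SQSTM1* (ENSG00000161011.15, chromosome 5, 179806398 to 179838078, GRCh38 in GENCODE 29) was the only gene called upwards in both experiments. It encodes p62, which binds ubiquitin, ATG8 proteins and the NRF2 inhibitor KEAP1. Its level was 979.3, 1107 and 1018 CPM in siCont and 1718, 1708 and 1628 CPM in siBACH1. In the knockout experiment it was 845.6, 902.7 and 920.1 CPM in sgCont and 1163, 1202 and 1225 CPM in sgBACH1. Every siBACH1 and sgBACH1 library lay above every control of its experiment, and siBACH1 libraries were the highest of all. The log2 fold change was 0.70 ± 0.07 (SE, edgeR adjusted p = 0.000155) for the siRNA and 0.43 ± 0.06 (adjusted p = 1.37e-05) for the knockout. The knockout response was the smaller by 0.28 ± 0.09 (log2 difference -0.28, adjusted p = 0.0308).

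*CALCOCO2* (ENSG00000136436.10, chromosome 17, 48830988 to 48866522), which encodes NDP52, a receptor for damaged mitochondria and invading bacteria, responded in the knockout. Its level was 64.8, 69.4 and 58.8 CPM in sgCont and 153.1, 130.1 and 128.7 CPM in sgBACH1. It rose by 1.09 ± 0.10 on the log2 scale (edgeR adjusted p = 4.14e-09), which was 2.13-fold and the largest rise of the 43 genes there. In the siRNA experiment it was 135.5, 209.2 and 140.5 CPM in siCont and 131.9, 136.7 and 136.2 CPM in siBACH1. Those groups overlapped, with the high value in siCont replicate 2, and the change did not pass the test (-0.26 ± 0.15, adjusted p = 0.248). The 2 responses differed by 1.35 ± 0.18 (adjusted p = 4.56e-05). Its level in sgBACH1 was near that in the siRNA experiment, as far as the separate scaling allows, and sgCont was the low group.

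The other receptors did not pass in either experiment. *NBR1*, a p62 relative that also binds ubiquitin, had log2 fold changes of -0.04 and 0.14 in siBACH1 and sgBACH1. *OPTN*, encoding optineurin, a receptor in mitophagy, had 0.28 and 0.26. The siCont libraries of *OPTN* read 90.02, 157.2 and 94.38 CPM, while siBACH1 read 136.9, 139.0 and 137.0. Without siCont replicate 2 its change was 0.57 and passed the test (adjusted p = 1.57e-07).

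The ATG8 genes differed from each other. *MAP1LC3B* (ENSG00000140941.8, chromosome 16, 87383995 to 87404779), encoding LC3B, was at 18.8, 47.0 and 13.6 CPM in siCont and at 6.09, 4.52 and 7.68 CPM in siBACH1. It was at 18.5, 24.0 and 19.8 CPM in sgCont and at 12.4, 13.8 and 16.5 CPM in sgBACH1. The treated libraries lay below all controls in both experiments, with siCont replicate 2 far above the rest. The gene fell by 2.1 ± 0.43 on the log2 scale in siBACH1 (edgeR adjusted p = 0.00706) and by 1.41 without siCont replicate 2. In sgBACH1 it fell by 0.54 ± 0.18 (adjusted p = 0.0325), a call lost without any of 4 of the libraries (adjusted p up to 0.151). *GABARAPL1*, encoding an ATG8 protein of the GABARAP branch, was at 7.18, 6.62 and 7.66 CPM in sgCont and at 10.9, 12.9 and 9.88 CPM in sgBACH1. It rose by 0.65 ± 0.23 there (adjusted p = 0.0468), a call lost without any single library (adjusted p from 0.0573 to 0.206), with no low count filter (0.101) and with limma-voom (0.0626), and it had 0.13 ± 0.21 in siBACH1.

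The genes that start autophagosome formation passed in neither comparison. *ULK1*, the initiating kinase, had -0.47 ± 0.32 in siBACH1, a change that passed only where low counts were not filtered (adjusted p = 0.0154), and 0.32 ± 0.21 in sgBACH1. *WIPI1*, which binds the phosphoinositide of the forming membrane, had -1.12 ± 0.58 and -0.03 ± 0.48 at levels of 0.598 to 4.07 CPM. In siCont, *ULK1* was at 23.1, 53.9 and 20.5 CPM, and without replicate 2 its siRNA value was 0.10. The *WIPI1* value without that library was -0.47.

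The lysosomal membrane glycoproteins LAMP1 and LAMP2, which line the organelle and protect its membrane, moved apart. *LAMP1* (ENSG00000185896.9, chromosome 13, 113297241 to 113323672) was at 127.1, 137.3 and 130.0 CPM in siCont and at 43.1, 38.2 and 40.0 CPM in siBACH1. This fall was 3.25-fold (log2 -1.70 ± 0.09, edgeR adjusted p = 3.80e-06). In the knockout experiment it was at 187.5, 207.1 and 221.5 CPM in sgCont and at 172.8, 174.9 and 170.4 CPM in sgBACH1. The groups again did not overlap, but the fall was 1.19-fold (log2 -0.25 ± 0.08, adjusted p = 0.0217) and did not pass without any of 4 of the libraries (adjusted p up to 0.106). The difference of the responses was 1.45 ± 0.12 (adjusted p = 1.13e-07). *LAMP2* (ENSG00000005893.11, chromosome X, 120427827 to 120469365) was at 56.7, 56.9 and 56.9 CPM in sgCont and at 106.7, 100.1 and 100.0 CPM in sgBACH1. It rose by 0.85 ± 0.09 on the log2 scale (adjusted p = 1.48e-07), while in siBACH1 it had 0.17 ± 0.07 (adjusted p = 0.132).

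**Figure D3:**
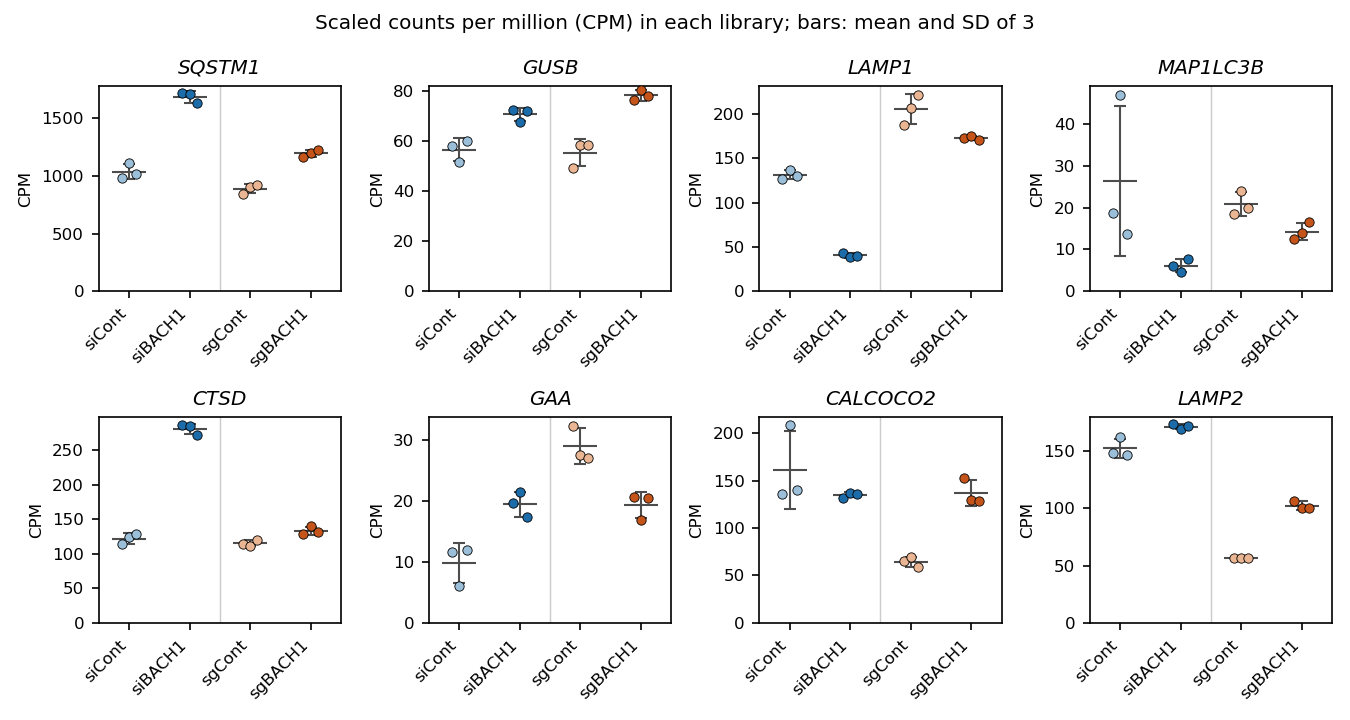
CPM of 8 genes in each of the 12 libraries on axes that start at 0, with the mean and SD of 3 libraries per group. SQSTM1 and GUSB are higher and LAMP1 and MAP1LC3B lower in both treated groups, CTSD differs mainly in siBACH1, GAA moves in opposite directions, and CALCOCO2 and LAMP2 are lowest in sgCont.

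Of the 8 proteases, 2 rose and none fell in siBACH1, beside 10.9% and 13.0% of all genes tested. In sgBACH1 4 rose and 1 fell, beside 11.3% and 12.3%. *CTSD* (ENSG00000117984.8, chromosome 11, 1752752 to 1764573), the aspartic protease cathepsin D, was at 113.4, 123.8 and 128.4 CPM in siCont and at 286.0, 284.5 and 272.0 CPM in siBACH1. It rose by 1.20 ± 0.08 on the log2 scale (edgeR adjusted p = 1.09e-05), the largest rise of the 43 genes in that experiment. In the knockout experiment it was at 113.5, 111.9 and 120.2 CPM in sgCont and at 128.7, 140.0 and 131.4 CPM in sgBACH1. Those groups did not overlap either, but the change of 0.21 ± 0.08 did not pass (adjusted p = 0.0654). It did pass with DESeq2 (adjusted p = 0.0422). The difference of the responses was -1.0 ± 0.11 (adjusted p = 3.02e-06). *TPP1*, which removes tripeptides from protein ends and is lost in a childhood neuronal storage disease, rose by 0.32 ± 0.09 in siBACH1 (adjusted p = 0.033) and had -0.18 ± 0.10 in sgBACH1. The siRNA call of *TPP1* was lost without any of 4 of the libraries (adjusted p up to 0.142).

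*CTSL* (chromosome 9), the cysteine protease cathepsin L, rose in the knockout. Its level was 28.9, 23.4 and 22.9 CPM in sgCont and 48.6, 44.4 and 44.2 CPM in sgBACH1 (log2 0.87 ± 0.13, edgeR adjusted p = 2.51e-05). In siBACH1 it had -0.20 ± 0.14, and the difference was 1.06 ± 0.19 (adjusted p = 0.000521). *CTSZ*, the carboxypeptidase cathepsin Z, rose by 0.45 ± 0.08 in sgBACH1 (adjusted p = 0.000148). *CTSA*, the protective protein of sialidase and beta-galactosidase, and *CTSB* rose there by 0.27 ± 0.10 and 0.17 ± 0.06, at adjusted p of 0.0492 and 0.0493. Those 2 calls were lost without any of 4 and any of 5 of the libraries (adjusted p up to 0.302 and 0.146), and with RLE scaling (0.0541 and 0.0557). *CTSA* was also lost with DESeq2 (0.0524) and *CTSB* with no low count filter (0.122). *CTSC*, the dipeptidase that activates granule proteases, fell by 0.34 ± 0.08 in sgBACH1 (adjusted p = 0.00347). *CTSH*, an aminopeptidase, passed in neither experiment, with -0.15 and -0.29.

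The 11 glycosidases, which trim sugars from glycoproteins, glycolipids and glycogen, split in both experiments. In siBACH1 3 rose and 1 fell, beside 10.9% and 13.0% of all genes tested. In sgBACH1 2 rose and 2 fell, beside 11.3% and 12.3%. *GAA* (ENSG00000171298.8, chromosome 17, 80101556 to 80119879), the acid alpha-glucosidase that degrades glycogen, was at 11.5, 6.06 and 11.9 CPM in siCont and at 19.6, 21.4 and 17.3 CPM in siBACH1. It was at 32.4, 27.5 and 27.1 CPM in sgCont and at 20.6, 16.8 and 20.5 CPM in sgBACH1. Treated and control libraries were separate in both experiments. The rise was 0.97 ± 0.23 (edgeR adjusted p = 0.0149) and the fall 0.58 ± 0.15 on the log2 scale (adjusted p = 0.00666), so the responses differed by -1.56 ± 0.28 (adjusted p = 0.000566). The rise did not pass without siBACH1 replicate 1 or 2 (adjusted p = 0.0618 and 0.0686), nor the fall without sgBACH1 replicate 2 (adjusted p = 0.0579). The siBACH1 and sgBACH1 means were alike, at 19.4 ± 2.06 and 19.3 ± 2.18 CPM (SD, n = 3 each), and the control means were 9.85 ± 3.29 and 28.97 ± 2.94 CPM.

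*GUSB*, beta-glucuronidase, was at 57.9, 51.6 and 60.2 CPM in siCont and at 72.3, 67.8 and 71.9 CPM in siBACH1. It was at 49.4, 58.5 and 58.5 CPM in sgCont and at 76.4, 80.5 and 77.9 CPM in sgBACH1. All treated libraries lay above their controls. It rose by 0.32 ± 0.09 in siBACH1 (edgeR adjusted p = 0.0307) and by 0.50 ± 0.10 in sgBACH1 (adjusted p = 0.000705). The siRNA call was lost without any of 4 of the libraries (adjusted p up to 0.117). *GUSB* is often used as a reference gene for quantitative PCR. *FUCA1* and *FUCA2*, the tissue and the secreted alpha-fucosidase, went apart in siBACH1. *FUCA1* rose by 0.40 ± 0.13 (adjusted p = 0.048, up to 0.175 without any of 4 of the libraries), and *FUCA2* fell by 0.39 ± 0.09 (adjusted p = 0.0127, and 0.0692 and 0.0741 without siBACH1 replicates 1 and 2). The *FUCA1* call was also lost with limma-voom (adjusted p = 0.0533) and with a replicate block in edgeR (0.0671). In sgBACH1 *FUCA1* and *FUCA2* had 0.39 ± 0.18 and -0.05 ± 0.10.

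*HEXA*, the alpha subunit of hexosaminidase A, fell by 0.49 ± 0.14 in sgBACH1 (edgeR adjusted p = 0.0119), from 39.9, 41.0 and 43.3 CPM to 34.8, 23.6 and 29.8 CPM. Without sgBACH1 replicate 2, the lowest of these, the fall did not pass (adjusted p = 0.114), nor without sgCont replicate 3 (0.052). *NAGLU*, which degrades heparan sulfate, passed in neither experiment (0.31 ± 0.11 and -0.35 ± 0.14), yet its responses differed by -0.67 ± 0.17 (adjusted p = 0.00894). The remaining glycosidases *GLB1*, *MANBA*, *MAN2B1* and *NEU1* passed neither comparison nor the test of the difference.

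Among the 6 enzymes and activators of lipid breakdown, none was called in siBACH1, beside 23.9% of all genes tested. In sgBACH1 1 rose and 1 fell, beside 11.3% and 12.3%. *LIPA*, the acid lipase that frees cholesterol from its esters, was at 110.1, 134.5 and 115.9 CPM in sgCont and at 74.2, 72.8 and 80.3 CPM in sgBACH1. It fell by 0.66 ± 0.09 (edgeR adjusted p = 7.64e-06) there and had -0.16 ± 0.08 in siBACH1, a difference of -0.51 ± 0.12 (adjusted p = 0.00572). *ASAH1*, acid ceramidase, was at 54.3, 70.2 and 64.0 CPM in sgCont and at 100.5, 92.8 and 86.8 CPM in sgBACH1. It rose by 0.57 ± 0.10 (adjusted p = 0.000201) and had -0.04 ± 0.08 in siBACH1. *PSAP*, *GM2A*, *SMPD1* and *PPT1* passed in neither experiment. *PSAP*, the most abundant of the 43, had 0.13 ± 0.06 in siBACH1 and 0.07 ± 0.06 in sgBACH1.

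The cholesterol exporters NPC2, which takes up cholesterol in the lumen, and NPC1, which hands it through the membrane, gave different calls. *NPC2* (ENSG00000119655.4, chromosome 14, 74476192 to 74494177) was at 30.6, 31.9 and 31.4 CPM in siCont and at 12.6, 19.6 and 17.1 CPM in siBACH1. It fell by 0.93 ± 0.16 (edgeR adjusted p = 0.00275) and had -0.12 ± 0.16 in sgBACH1, a difference of 0.80 ± 0.23 (adjusted p = 0.0149). *NPC1* rose by 0.51 ± 0.12 in sgBACH1 (adjusted p = 0.00175), from 70.5, 68.6 and 50.1 CPM to 82.3, 91.7 and 95.3 CPM. In siBACH1 it had -0.01 ± 0.17, and without siCont replicate 2, which read 136.6 CPM beside 85.6 and 83.3 CPM, it had 0.25 and passed (adjusted p = 0.00463).

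Of the proton pump genes, *ATP6AP1* (ENSG00000071553.12, chromosome X, 154428632 to 154436516), an accessory subunit of the V-ATPase that acidifies the lysosome, passed in sgBACH1 alone. It was at 43.02, 41.2 and 45.9 CPM in sgCont and at 79.5, 92.6 and 79.2 CPM in sgBACH1, a log2 rise of 0.95 ± 0.11 (edgeR adjusted p = 2.20e-07). In siBACH1 it had -0.18 ± 0.09. The structural subunits *ATP6V0D1* and *ATP6V1H* passed in neither. Without siCont replicate 2, *ATP6V0D1* had -0.23 in siBACH1 and passed (edgeR adjusted p = 0.0131). The calcium channel gene *MCOLN1* (0.10 and -0.07) and the regulators *TFEB* (0.06 and 0.27) and *TFE3* (0.04 and -0.01) did not pass in either experiment. Their RNA says nothing of the location of TFEB and TFE3 proteins, through which they are known to be controlled.

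The 5 genes with the palindrome TCACGTGA in their promoters had no common direction. In siBACH1 *LAMP1* fell, *GAA* rose, and *CTSA* (0.11), *MCOLN1* (0.10) and *ATP6V0D1* (-0.18) did not pass. In sgBACH1 *LAMP1* and *GAA* fell, *CTSA* rose, and *MCOLN1* (-0.07) and *ATP6V0D1* (0.11) did not pass. *FUCA2* and *TFE3*, the genes with TGAGTCA, had a fall and no call in siBACH1 and no call in sgBACH1.

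The 3′ UTR matches sorted the genes that fell in siBACH1. All 3 genes with AACATTAA (*LAMP1*, *NPC2* and *MAP1LC3B*) fell, by 0.93 to 2.1 on the log2 scale, and these were the largest called falls of the 43. None of the 4 with a 7-base match only was called in siBACH1 (range -0.26 to 0.13), and 1 of the 36 without a match, *FUCA2*, fell. Over all genes tested in siBACH1 whose 3′ UTR could be read, 48.9% of 753 with AACATTAA fell (median log2 -0.48), as did 28.7% of 1937 with a 7-base match only (-0.17) and 9.25% of 8965 with none (0.06). In sgBACH1 the shares were 14.7%, 13.7% and 14.3%. The match was known from these data before it was applied to the 43 genes, so their place in it is a description. No source used here gives the sequence of the siRNA, and the part of the match in these falls was not tested.

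**Figure D4:**
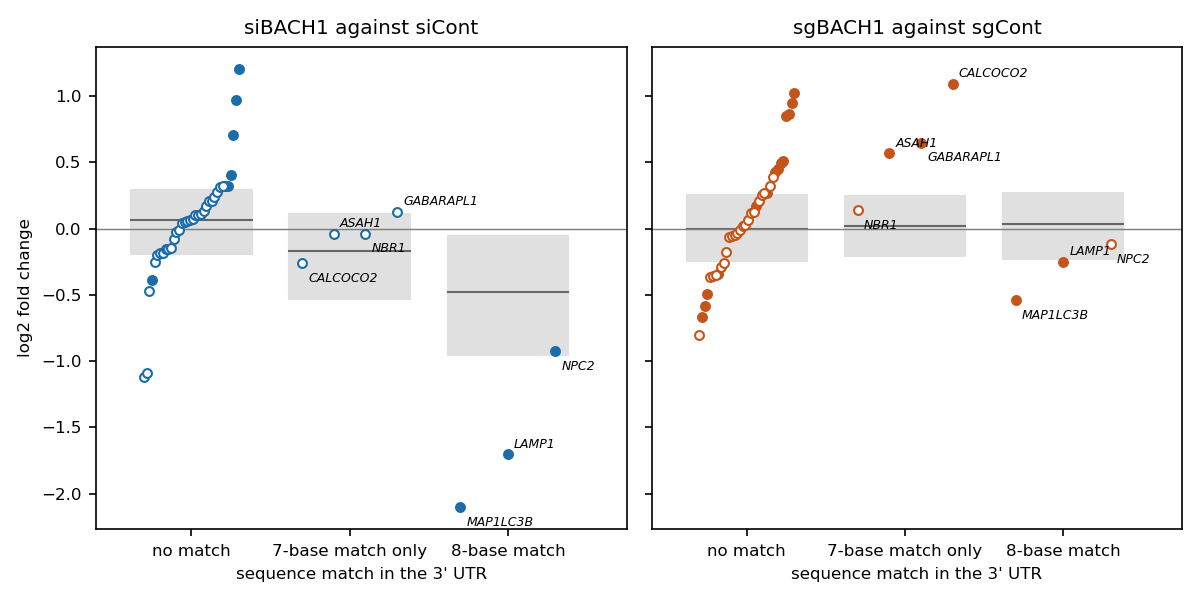
Log2 fold change of the 43 genes by sequence match in their 3′ UTR, in siBACH1 (left) and sgBACH1 (right), filled where called. Grey boxes span the middle quartiles of all genes tested in each class and the line is their median. MAP1LC3B, LAMP1 and NPC2 lie low in siBACH1 and nearer 0 in sgBACH1.

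In the knockout experiment, some of the genes moved with their chromosomal neighbours. For each gene the median log2 fold change of the 100 nearest tested genes on its chromosome was taken (GENCODE 29, GRCh38). *LAMP2*, *GLA* and *ATP6AP1* lie on the long arm of chromosome X, and their neighbours had medians of 0.78, 0.58 and 0.73, with 59, 40 and 60 of 100 called upwards. The genes themselves rose by 0.85, 1.03 and 0.95, so 3 of the 13 rises in sgBACH1 lie in that region. *GLA* (ENSG00000102393.5, 101397803 to 101408012), alpha-galactosidase A, was at 23.0, 20.9 and 26.2 CPM in sgCont and at 48.7, 49.3 and 44.9 CPM in sgBACH1 (edgeR adjusted p = 1.96e-06). *TFE3*, on the short arm of X, had neighbours at -0.14 and itself -0.01. The other X-linked genes of the wider pathway followed the same order: *IDS* (1.24) and *ATG4A* (1.11) on the long arm rose with neighbours at 0.73 and 0.62, and *ATP6AP2*, *WDR45*, *FUNDC1* and *RRAGB* on the short arm did not pass.

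SgCont was the low group for the long-arm genes. *LAMP2* averaged 56.8 CPM in sgCont and 102.3 in sgBACH1, beside 152.4 in siCont and 171.4 in siBACH1. *GLA* averaged 23.4 and 47.6 CPM, beside 59.6 and 62.6, and *ATP6AP1* 43.4 and 83.8 CPM, beside 85.5 and 75.3. Differences of this kind between the sgCont and sgBACH1 cells and the guide against *BACH1* cannot be told apart in these libraries.

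*MAP1LC3B* on chromosome 16 had neighbours at -0.45, with 48 of 100 called downwards, and itself -0.54 in the knockout. *ULK1* on chromosome 12 had neighbours at -0.33, with 41 called downwards, and itself 0.32. *CTSZ* and *CTSA* on chromosome 20 had neighbours at 0.23 and 0.20. The neighbours of *CALCOCO2* (-0.02), *CTSL* (0.07), *ASAH1* (-0.02), *SQSTM1* (-0.05), *GUSB* (-0.05) and *LIPA* (0.05) did not move with them. In siBACH1 the neighbour medians of the 43 genes ran from -0.16 (*LIPA*) to 0.15 (*GAA*).

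**Figure D5:**
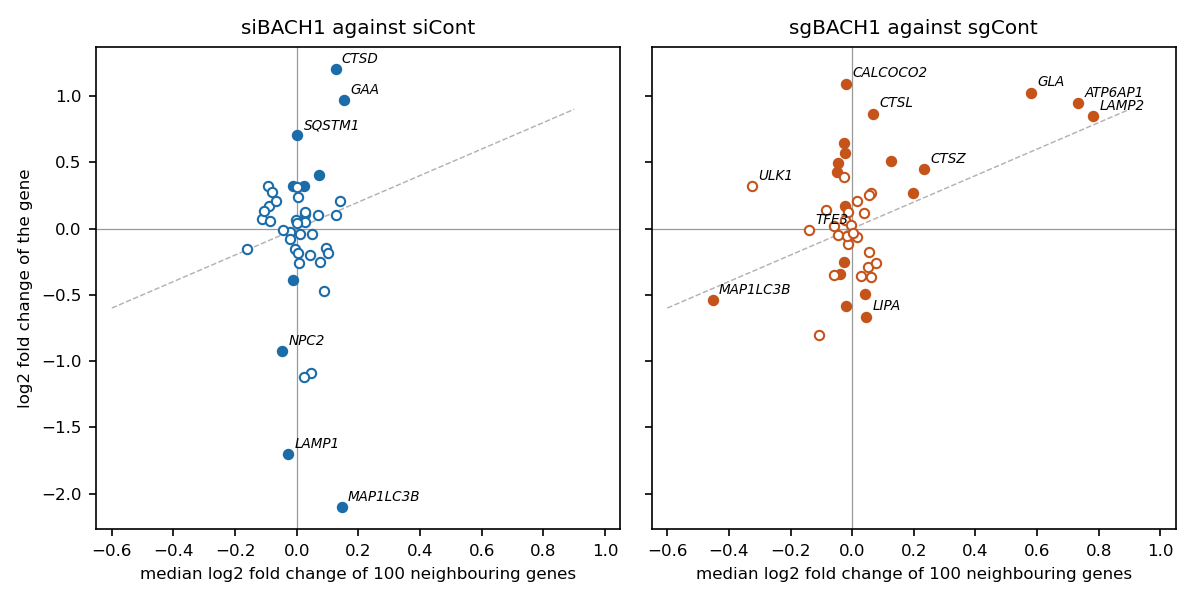
Log2 fold change of each of the 43 genes against the median of its 100 nearest tested neighbours on the chromosome, filled where called, with the line of equal values dashed. In sgBACH1, LAMP2, ATP6AP1 and GLA lie at the right with neighbours that rose, MAP1LC3B lies at the left with neighbours that fell, and CALCOCO2 and CTSL rose beside neighbours near 0.

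The wider pathway was read from 5 lists that hold none of the 43 genes, whose counts are to be read beside those of all genes. In siBACH1 10.9% of all genes rose and 13.0% fell, and in sgBACH1 11.3% rose and 12.3% fell, with medians of 0.005 and 0.006 on the log2 scale. Of 29 other lysosomal hydrolases tested, 5 rose and 3 fell in siBACH1 (median -0.003), and 4 rose and 5 fell in sgBACH1 (-0.02). The falls in siBACH1 included *GALC*, galactosylceramidase (-2.07), and *IDS*, iduronate sulfatase (-1.44), both with a 3′ UTR match. Legumain, *LGMN*, rose in sgBACH1 from 95.3 to 226.4 CPM (log2 1.25 ± 0.08, edgeR adjusted p = 2.90e-11). *GALNS* and *PLA2G15*, which start at 88813734 and 68245304 on chromosome 16, fell in sgBACH1 by 0.66 and 0.65. *MAP1LC3B* starts at 87383995 on that chromosome. The 100 neighbours of *ATP6V0D1*, which starts at 67438014 there, had a median of 0.04 in sgBACH1, with 15 called upwards and 9 downwards. *CLCN7* (-0.47), *MLST8* (-0.64) and *TSC2* (-0.62), also on chromosome 16, fell in sgBACH1. *CDH1* (0.57) and *NQO1* (1.09) on the same chromosome rose there, as they did in siBACH1 (0.84 and 0.96). Whether a change of the region had a part in these values was not tested.

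Of 25 other lysosomal membrane and transport genes tested, 3 rose and 4 fell in siBACH1 (median -0.12), and 5 rose and 5 fell in sgBACH1 (-0.15), beside the same shares of all genes. *OSTM1*, the partner of the chloride transporter CLCN7, fell by 2.33 in siBACH1, and *SUMF1*, which activates sulfatases, by 1.20. *SCARB2*, the receptor that carries glucocerebrosidase to lysosomes, fell there by 0.90. *SUMF1* also fell in sgBACH1, by 0.65 (edgeR adjusted p = 0.000774). Sortilin, *SORT1*, which sorts enzymes to lysosomes, rose by 3.35 ± 0.23 in sgBACH1 (edgeR adjusted p = 8.24e-11), from a mean of 6.21 to 64.7 CPM. Of 13 other V-ATPase subunits tested, none rose and 3 fell in siBACH1 (median -0.04), and 2 rose and 2 fell in sgBACH1 (median 0.11). The 3 that fell in siBACH1 were *ATP6V1G1*, *ATP6V1D* and *ATP6V1C1*, by 0.41 to 0.69. *ATP6V1D* also fell in sgBACH1, by 0.35 (edgeR adjusted p = 0.0481).

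Of 36 other genes of the autophagy machinery, 2 rose and 7 fell in siBACH1 (median -0.19, with 10.9% of all genes rising and 13.0% falling), and 3 rose and 3 fell in sgBACH1 (median 0.04, with 11.3% and 12.3%). *ATG10* (-1.19), the conjugating enzyme for ATG5, and *ATG2B* (-1.05), a lipid transfer protein, held AACATTAA and fell in siBACH1. *BECN1* (-0.73), part of the lipid kinase complex that starts autophagosomes, fell without a match. *ATG16L1* (0.48) and *ATG9A* (0.45), which act in LC3 attachment and membrane supply, rose in sgBACH1. Of the genes that control mTORC1 and TFEB, 3 of 19 rose (*RHEB*, *TSC1* and *FLCN*) and 1 fell (*LAMTOR5*) in siBACH1 (median 0.03). In sgBACH1 none of 20 rose and 4 fell (median -0.12), among them *MLST8* (-0.64) and *TSC2* (-0.62) on chromosome 16. Another was *MITF* (-1.92), a relative of TFEB, from a mean of 6.57 CPM in sgCont to 1.715 in sgBACH1. It averaged 0.18 CPM in siCont and 0.278 in siBACH1, so sgCont was the high group, as far as the separate scaling allows. Together, of the genes in these lists with AACATTAA 5 of 9 fell in siBACH1, as did 5 of 15 with a 7-base match only and 8 of 98 with none. In the same order 0, 2 and 11 rose there. *CTSV* (0.90) and *TMEM192* (0.545) rose with a 7-base match.

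Of 10 genes of the NRF2 axis, *BACH1* among them, 5 rose and 1 fell in siBACH1 (median 0.29). In sgBACH1 5 rose and 2 fell (median 0.26). Over all genes tested, 10.9% rose and 13.0% fell in siBACH1 (median 0.005), and 11.3% and 12.3% did in sgBACH1 (median 0.006). *HMOX1*, heme oxygenase 1, and *NQO1*, a quinone reductase, rose by 4.70 and 0.96 on the log2 scale in siBACH1 and by 5.70 and 1.09 in sgBACH1, and *SQSTM1* had 0.70 and 0.43. *GCLM*, a subunit of the first enzyme of glutathione synthesis, and *MAFG*, a partner of BACH1 and NRF2, also rose in both. *KEAP1* rose in siBACH1 (0.40), *NFE2L2*, the gene of NRF2, rose in sgBACH1 (0.45), and the small MAF gene *MAFF* fell in sgBACH1 (-0.97). *CUL3* and *MAFK* passed in neither. *LYZ*, the lysozyme gene, known from secretory and myeloid cells, rose by 3.62 in sgBACH1, from 59.4 ± 8.62 to 733.0 CPM. Of the 5 other leukocyte and macrophage markers, *PTPRC*, *CSF1R*, *CD163* and *MARCO* were under 1 CPM in every sgBACH1 library, and *CD14* averaged 3.41 CPM there and 1.40 in sgCont (log2 1.29, edgeR adjusted p = 0.0578; difference of the responses 2.77, adjusted p = 0.00156). Counts carry a limit of annotation. Exons of 21 of the 43 genes overlap exons of another gene, 18 of them on the opposite strand and 9 on the same strand, and the sources used here do not say whether counting used strand, so their counts are uncertain.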

How the data were processed

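Raw read counts per gene were deposited by the authors, 1 table per experiment. Per the submitters' processing notes HTSeq 0.9.1 and SAMtools were used with genome hg19. Aligner, counting mode and strand setting: not given in the sources used here. Per the labels' protocols, rRNA was removed from total RNA and libraries were read on an Ion Proton.

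The deposited counts went into edgeR 4.0.16 under R 4.3.3. Libraries were scaled by TMM, low genes were removed by filterByExpr (minimum count 10), and the quasi-likelihood test was run two-sided. P-values were adjusted over all genes after Benjamini and Hochberg and called below 0.05. The main fits take 1 experiment each, with no block for replicate number. A single fit of all 12 libraries gave the difference between the responses. CPM are TMM-scaled, and no value is on another scale unless named. The fits were also run on simulated data with known changes, and the outcome is not reported here. A gene that did not pass is not thereby shown to be unchanged.

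The 43 genes and all lists and sequences searched were chosen with earlier results of these data known. All 43 genes are named, and from each other list the largest called changes, up to 3 per direction, where log2 CPM averaged 1 or more. Some genes that this rule selects are not reported here. Genes named as low, X-linked or on chromosome 16 beyond that rule were chosen after their values were seen. Symbols matched 51996 of 57820 identifiers. Exon lengths, positions and 3′ UTRs are from GENCODE 29 on GRCh38, not the build of the counts, and promoters are from RefSeq. Alternatives were RLE and upper quartile scaling, no filter, DESeq2 1.42.0, limma-voom (limma 3.58.1), a replicate block and leaving out each library. Tables were made with Python 3.11.15 and pandas 2.3.3.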

Additional observations from a re-analysis of the deposited data

Results flagged for a closer look

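The response to the knockout differed from the response to the siRNA, by the test across all 12 libraries with edgeR (adjusted p below 0.05), for 16 of the 43 genes. The values are log2 differences, knockout minus siRNA. The knockout response was higher for *MAP1LC3B* by 1.55, *LAMP1* by 1.45, *CALCOCO2* by 1.35, *ATP6AP1* by 1.13, *CTSL* by 1.06, *GLA* by 0.95, *NPC2* by 0.80, *LAMP2* by 0.67, *ASAH1* by 0.60 and *CTSZ* by 0.34. The difference was -1.56 for *GAA*, -1.0 for *CTSD*, -0.67 for *NAGLU*, -0.51 for *LIPA*, -0.51 for *TPP1* and -0.28 for *SQSTM1*. Of the 10 higher ones, *MAP1LC3B*, *LAMP1* and *NPC2* carry AACATTAA in their 3′ UTR and fell in siBACH1. *ATP6AP1*, *GLA* and *LAMP2* lie on the long arm of chromosome X among genes that rose in sgBACH1. The part of either in these differences was not tested. *CALCOCO2* and *CTSL* had neighbours near 0 in both experiments and no siRNA call. The experiments also differ in time, delivery and selection, which cannot be told apart from the way BACH1 was lowered.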

How the results depend on the processing

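Over the alternative scalings, filter, tools and replicate block, the counts of genes called stayed within 1.5 times the reported ones: 4 to 7 rising and 4 to 5 falling in siBACH1, 11 to 13 rising and 6 to 7 falling in sgBACH1, and 15 to 17 for the difference. Leaving out 1 library gave 2 to 10 rising in siBACH1 (2 without siBACH1 replicate 1 or 2, 3 without siBACH1 replicate 3 or siCont replicate 1, 10 without siCont replicate 2) and 3 to 5 falling. In sgBACH1 it gave 10 to 13 rising and 2 to 6 falling (2 without sgBACH1 replicate 2, 3 without sgCont replicate 3), and 14 to 17 for the difference. With a replicate block 4 genes rose in siBACH1, *FUCA1* (adjusted p = 0.0671) and *TPP1* (0.0567) losing their calls. In sgBACH1 the block lost *GABARAPL1* (0.0617) and gained *OPTN* (0.0308). The numbers are not shown to pair the libraries: deviations of same-numbered libraries correlated by 0.057, 0.041 and 0.02 in the siRNA experiment, where 6 of 6 correlated best with their own number, and by -0.015, 0.049 and 0.044 in the knockout, where 4 of 6 did. Sign changes outside the leave-one-out fits touched only values near 0: *GLB1* (0.01) and *NPC1* (0.025) with upper quartile scaling, *NPC1* with no filter (0.001), limma-voom (0.039) and the block (0.025) in siBACH1, and *MCOLN1* (0.07 and 0.007) and *WIPI1* (0.086 and 0.092) with limma-voom and the block in sgBACH1. Leaving out 1 library moved these siRNA values across 0: *CTSH* -0.269 to 0.049, *GLA* -0.033 to 0.123, *GLB1* -0.123 to 0.045, *HEXA* -0.202 to 0.066, *NPC1* -0.144 to 0.25, *ATP6V1H* -0.02 to 0.124, *MCOLN1* -0.009 to 0.173, *TFEB* -0.031 to 0.169, *TFE3* -0.041 to 0.113, *GABARAPL1* -0.065 to 0.325 and *ULK1* -0.723 to 0.097. In the knockout these were *MAN2B1* -0.101 to 0.166, *GM2A* -0.01 to 0.066, *ATP6V1H* -0.179 to 0.025, *MCOLN1* -0.27 to 0.369, *TFE3* -0.045 to 0.036 and *WIPI1* -0.367 to 0.413. The cause was not tested. Scaling moved the median of all genes by at most 0.034. Low counts limit what can be said of *NEU1* and *WIPI1*, with as few as 5 and 12 counts in a library and standard errors of 0.54 and 0.58 in siBACH1. How much of these errors is depth was not tested.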
